A study of Homo sapiens with 84 samples.

Results

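The early response of NCI-H1373 to PARP7 inhibitors was set against that of NCI-H647, line against line, with compounds and doses pooled. The comparison used the 42 libraries harvested at 6 h, out of 84 in the series. Each line gave 18 treated libraries, from cells exposed to RBN-2397 (10, 30 or 300 nM) or to RBN012337 (3, 10 or 100 nM), and 3 libraries from cells given the vehicle DMSO alone. Every combination of line, compound and dose was held by 3 libraries, labelled replicates 1 to 3. The response of a line was the mean of its 6 treated groups minus its DMSO group, on the log2 scale, and the tested quantity was the NCI-H1373 response minus the NCI-H647 response. Both lines are established non-small cell lung cancer lines, and their alleles are not named in the labels. With 1 line of each kind, a difference applies to these cultures and not to a class of tumours. The sample labels spell RBN-2397 as RBN012397. Doses were chosen by the submitters around 3 levels of inhibition for each compound.

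PARP7, the product of TIPARP, attaches single ADP-ribose units to other proteins. TIPARP is a target gene of the aryl hydrocarbon receptor, a ligand-activated transcription factor that binds DNA together with ARNT at the core letters GCGTG, and PARP7 in turn restrains that receptor. PARP7 also restrains the signalling that follows detection of nucleic acids in the cell and leads to type I interferon. The receptor's best known targets encode the cytochrome P450 enzymes CYP1A1 and CYP1B1, which oxidise foreign and endogenous compounds, and AHRR, which represses the receptor.

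Promoter sequences from RefSeq on GRCh38.p14 are shown for receptor targets described below, none of which passed in the difference between the lines. That of HCLS1, which was lower in the difference, is shown as well. Each runs 5′ to 3′ on the gene's own strand over 300 bases, 250 before and 50 after the annotated start. Capitals mark GCGTG or its reverse complement CACGC, so both strands were searched. The windows are chr15:74725479-74725778 (minus strand) for CYP1A1, chr5:322360-322659 (plus strand) for AHRR, chr3:156674340-156674639 (plus strand) for TIPARP and chr3:121660854-121661153 (minus strand) for HCLS1.
CYP1A1: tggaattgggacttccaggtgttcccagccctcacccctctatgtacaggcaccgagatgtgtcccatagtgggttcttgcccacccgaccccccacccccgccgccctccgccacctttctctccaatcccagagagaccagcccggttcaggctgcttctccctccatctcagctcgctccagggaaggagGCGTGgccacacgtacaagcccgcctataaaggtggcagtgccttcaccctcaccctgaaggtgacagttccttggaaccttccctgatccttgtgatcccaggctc
AHRR, second start site: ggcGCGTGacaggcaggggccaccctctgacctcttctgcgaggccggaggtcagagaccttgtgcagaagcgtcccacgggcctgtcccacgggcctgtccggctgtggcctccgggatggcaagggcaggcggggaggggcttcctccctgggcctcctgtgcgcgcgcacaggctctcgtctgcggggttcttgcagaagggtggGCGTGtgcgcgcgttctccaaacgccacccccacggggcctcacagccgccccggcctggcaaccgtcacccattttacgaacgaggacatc
TIPARP, first start site: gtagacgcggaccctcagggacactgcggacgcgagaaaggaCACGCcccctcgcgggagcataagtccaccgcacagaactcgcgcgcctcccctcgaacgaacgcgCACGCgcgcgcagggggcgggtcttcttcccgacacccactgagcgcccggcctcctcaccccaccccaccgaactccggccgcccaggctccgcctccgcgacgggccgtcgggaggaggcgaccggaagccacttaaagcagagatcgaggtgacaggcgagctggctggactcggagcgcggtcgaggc
HCLS1: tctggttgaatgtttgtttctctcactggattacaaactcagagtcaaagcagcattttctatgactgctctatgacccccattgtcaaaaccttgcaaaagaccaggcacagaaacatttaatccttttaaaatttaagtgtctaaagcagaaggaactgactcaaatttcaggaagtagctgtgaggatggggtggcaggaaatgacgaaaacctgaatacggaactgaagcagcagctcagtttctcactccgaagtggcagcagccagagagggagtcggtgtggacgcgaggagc
The letters occur once or more in 36.5% of the 35116 promoters of that table. Of the 10422 tested genes with a promoter there, 57.4% hold them at any listed start site. That share is per gene, so it cannot be set against the share per promoter. The letters occur 1 time in the CYP1A1 window, 2 times in the AHRR window, 2 times in the TIPARP window shown and 0 times in the HCLS1 window. The other start site listed for AHRR holds 1 occurrence, and the other two listed for TIPARP hold 0. Of genes called higher in NCI-H1373 (below), 81 of the 124 with a promoter in the table hold the letters (65.3%). Of genes called lower, 143 of 245 hold them (58.4%). Of 6 genes looked up, 4 were found, and the other two were TWNK and CYP1B1.

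At 6 h an NCI-H1373 library held between 1017795 and 5994444 counts and an NCI-H647 library between 1769332 and 6938648, and the 7 shallowest libraries of NCI-H1373 were those of replicate 3. Genes with at least 1 count numbered 15676 to 21096 in NCI-H1373 and 16650 to 22469 in NCI-H647. The keratin genes KRT7, KRT8 and KRT18 averaged 345 CPM (counts scaled to the library total) or more in treated libraries of both lines, whereas the epithelial adhesion gene EPCAM averaged 371 CPM in treated NCI-H1373 libraries and 3.46 CPM in treated NCI-H647 libraries, and the lung lineage gene NKX2-1 averaged 7.28 and 0.0973 CPM. Summed markers of immune cells, fibroblasts and endothelium stayed at or below 20.95 CPM per library, and CD3E had 0 counts throughout. Some libraries stood apart from their groups. On the first principal component of NCI-H1373 (20.4% of the variance) RBN012337 100 nM replicates 1 and 2 and RBN-2397 30 nM replicate 2, at 43.2 to 48.0, lay with DMSO replicates 1 and 2, at 41.7 and 59.5. The other 16 libraries of the line, DMSO replicate 3 among them, lay at or below 10.5. The lowest were those of replicate 3, its treated libraries at −48.2 to −32.1 and its DMSO library at −15.3. Replicate number was not removed before the components were taken. On the second component of NCI-H1373 (15.1%) DMSO replicates 2 and 3 lay lowest, at −49.8 and −42.3, and DMSO replicate 1 lay at 9.1. In NCI-H647, DMSO replicate 2 lay at 112 on the first component (19.4%), with the other 20 at or below 32.7. RBN-2397 300 nM replicate 2 lay at 106 on the second (16.6%), with the others at or below 22.4. Mitochondrially encoded and ribosomal protein transcripts, read as signs of RNA quality, had median responses of −0.20 and −0.19 on the log2 scale in NCI-H1373 and of −0.03 and −0.08 in NCI-H647. No member of either list passed the test in a line, and their part in the results was not tested. In bulk RNA, fewer cells of one state and less RNA per cell cannot be told apart.

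The response of 2 genes differed between the lines. TWNK, which encodes the helicase that unwinds mitochondrial DNA, was higher in the difference, and HCLS1, which encodes a regulator of the actin skeleton best known from blood cells, was lower. They were 2 of 15252 genes tested (0.0131%), called by edgeR's quasi-likelihood test at a Benjamini-Hochberg adjusted p under 0.05. At an unadjusted p under 0.05 there were 735 genes, and 5% of the genes tested is 763. The median standard error of a difference was 0.363 on the log2 scale.

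TWNK lies at chr10:100987367-100994401 on the plus strand of GRCh38. In the 18 treated NCI-H1373 libraries it ranged from 15.8 to 42.1 CPM with a median of 29.5 CPM, against 9.49, 13.96 and 13.6 CPM in DMSO replicates 1 to 3. All 18 treated libraries lay above all 3 DMSO libraries. In NCI-H647 the treated libraries ranged from 12.1 to 22.6 CPM with a median of 16.2 CPM, against 22.5, 12.1 and 19.9 CPM in DMSO, and 17 of 18 lay within the DMSO range. TWNK rose by 1.28 ± 0.21 (SE) on the log2 scale in NCI-H1373 (edgeR adjusted p = 0.000962), and the value in NCI-H647 was −0.15 ± 0.18 (adjusted p = 0.846). The difference was 1.43 ± 0.27 (adjusted p = 0.0407). Each of the 6 treatments contributed in NCI-H1373, with 1.46, 1.30 and 1.44 for TWNK at 10, 30 and 300 nM RBN-2397 and 1.32, 1.40 and 0.76 at 3, 10 and 100 nM RBN012337. The exons of TWNK overlap those of MRPL43 on the other strand, whose difference was 0.06, and the handling of strand is not given in the sources used here. With the compounds taken singly, TWNK differed by 1.43 in each, at adjusted p = 0.0543 for RBN-2397 and 0.211 for RBN012337. Its call was also lost without the replicate block (1.38, adjusted p = 0.202). Leaving out 1 library ended the TWNK call in 23 of 42 fits, at 1.13 (adjusted p = 0.455) without NCI-H1373 DMSO replicate 1, and for 19 of the 23, treated libraries all, at adjusted p = 0.0504 to 0.0693.

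HCLS1 lies at chr3:121631399-121660927 on the minus strand. In NCI-H1373 it was at 0 to 7.19 CPM in treated libraries, with a median of 0, against 4.74, 3.10 and 0 CPM in DMSO replicates 1 to 3. Of 18 treated libraries 10 held no count of it. A count of 0 in DMSO replicate 3 allows up to 1.77 CPM. The treated values above 0.77 CPM were 7.19 and 4.40 CPM in RBN012337 100 nM replicates 1 and 2 and 3.76 CPM in RBN-2397 30 nM replicate 2, the same 3 libraries that lay with DMSO replicates 1 and 2 on the first component. In NCI-H647 HCLS1 ranged from 7.44 to 17.8 CPM in treated libraries, with a median of 11.03 CPM, and stood at 10.1, 19.6 and 12.2 CPM in DMSO, so those groups overlapped. The fitted response was −3.56 ± 0.54 in NCI-H1373 (adjusted p = 0.000777) and −0.17 ± 0.28 in NCI-H647 (adjusted p = 0.902), and the difference was −3.38 ± 0.61 (adjusted p = 0.0338). With DMSO replicate 3 as the only NCI-H1373 vehicle the sign turned, to 0.70 (adjusted p = 1). The difference was −1.46 (adjusted p = 1) where the 18 treated libraries shared 1 coefficient, and −4.61 (adjusted p = 0.00218) without the 3 treated libraries named above. The HCLS1 call was lost in 17 of 42 fits without 1 library, at −2.77 (adjusted p = 0.691) without NCI-H1373 DMSO replicate 1. It was also lost without the replicate block (−3.25, adjusted p = 0.335) and with limma-voom (−2.34, adjusted p = 0.323).

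**Figure D1:**
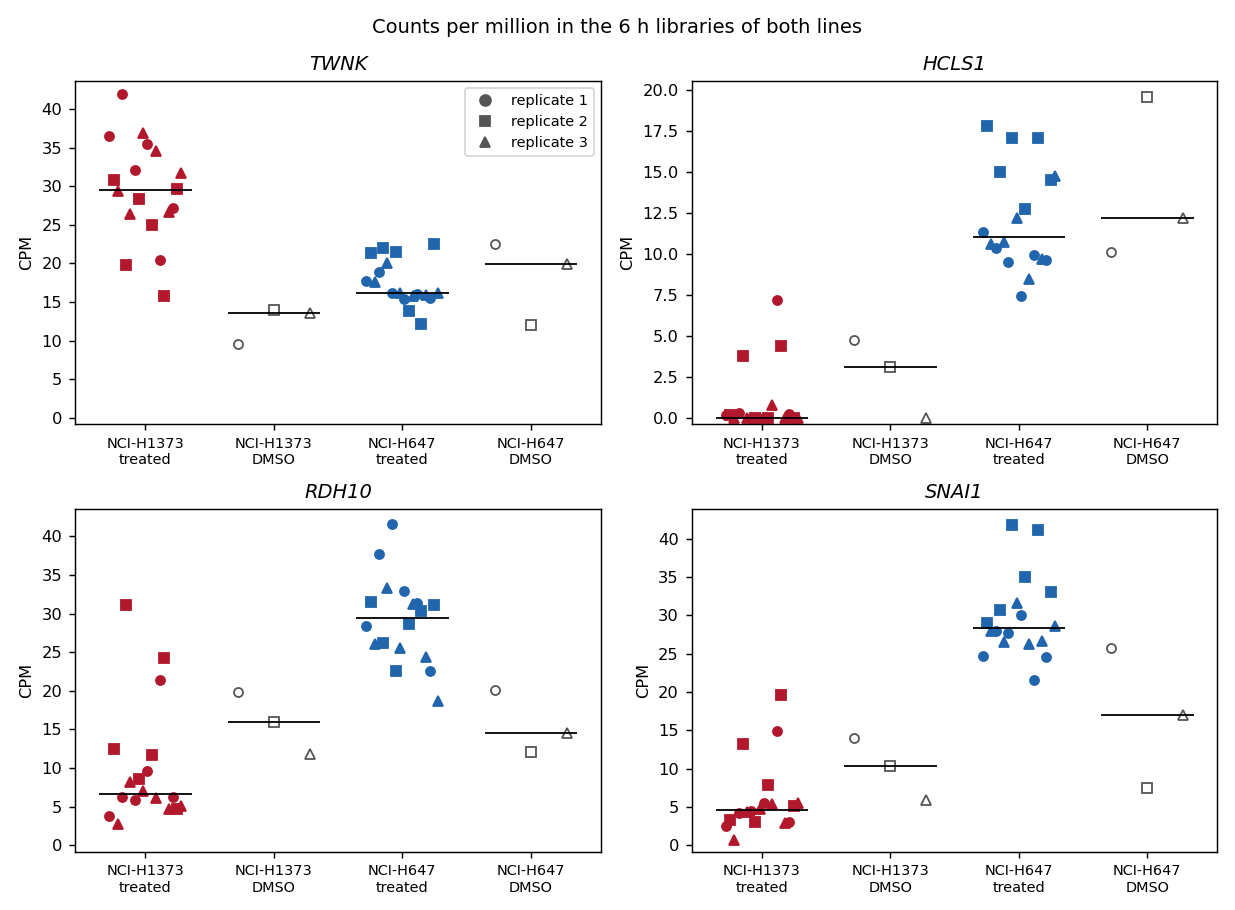
CPM of TWNK, HCLS1, RDH10 and SNAI1 in each 6 h library, by line and treatment; points are libraries, their shape is the replicate number and the bar is the group median. All 18 treated NCI-H1373 libraries lie above DMSO for TWNK, whereas for the other genes 3 treated NCI-H1373 libraries lie high.

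Of the genes nearest to the threshold, the next 5 in each direction by unadjusted p are given as values, since none was called. Among those on the positive side, CRKL encodes an adaptor protein of growth factor signalling. It was at 10.0 to 30.8 CPM in treated NCI-H1373 libraries (median 24.5), against 11.8, 6.21 and 17.2 CPM in DMSO, and at 8.95 to 17.6 CPM in treated NCI-H647 libraries (median 12.8), against 15.5, 20.3 and 21.8 CPM in DMSO. Treated libraries thus lay above all DMSO values in 12 of 18 cases in NCI-H1373 and below them all in 14 of 18 cases in NCI-H647. The CRKL difference was 1.48 ± 0.31 (edgeR adjusted p = 0.0827). SH3BP4, an endocytic adaptor, had a difference of 1.50 ± 0.36 (adjusted p = 0.175), from a rise of 1.79 in NCI-H1373 (adjusted p = 0.000962) and a value of 0.29 in NCI-H647. PRAG1, a pseudokinase, had 1.82 ± 0.46 (adjusted p = 0.254), and all 18 treated NCI-H1373 libraries lay above DMSO. PDP2, the catalytic subunit of a pyruvate dehydrogenase phosphatase, had 0.96 ± 0.24 (adjusted p = 0.234). The value of MB21D2 was 2.18 ± 0.49 (adjusted p = 0.124).

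On the negative side, RDH10, SNAI1 and DSEL had responses of opposite sign in the lines. RDH10, the retinol dehydrogenase that starts the synthesis of retinoic acid, was at 2.74 to 31.1 CPM in treated NCI-H1373 libraries (median 6.66), against 19.9, 16.03 and 11.8 CPM in DMSO. In NCI-H647 it was at 18.7 to 41.7 CPM in treated libraries (median 29.5), against 20.1, 12.1 and 14.6 CPM in DMSO. Of the treated libraries 14 of 18 lay below all DMSO values in NCI-H1373 and 17 of 18 lay above them all in NCI-H647. RDH10 fell by 0.92 ± 0.27 in NCI-H1373 (adjusted p = 0.0466), was 0.86 ± 0.26 in NCI-H647 (adjusted p = 0.247) and had a difference of −1.78 ± 0.37 (adjusted p = 0.0827). SNAI1, a repressor that drives epithelial cells towards a mesenchymal state, followed the same arrangement. It was at 0.684 to 19.6 CPM in treated NCI-H1373 libraries (median 4.57), against 14.04, 10.3 and 5.92 CPM in DMSO, and at 21.6 to 41.8 CPM in treated NCI-H647 libraries (median 28.3), against 25.7, 7.53 and 17.0 CPM in DMSO. The SNAI1 difference was −1.67 ± 0.38 (adjusted p = 0.149), from a fall of 1.02 in NCI-H1373 and a value of 0.65 in NCI-H647.

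DSEL, a homologue of the dermatan sulfate epimerase, came closest to the threshold, with a difference of −1.33 ± 0.26 (adjusted p = 0.0564). Its responses were −0.83 in NCI-H1373 (adjusted p = 0.0155) and 0.50 in NCI-H647 (adjusted p = 0.28), and 14 of 18 treated NCI-H1373 libraries lay below DMSO while 16 of 18 treated NCI-H647 libraries lay above. BTBD8 differed by −2.49 ± 0.53 (adjusted p = 0.0827), with all 18 treated NCI-H1373 libraries, at 0 to 2.30 CPM, below DMSO at 3.98, 5.69 and 3.55 CPM. CD27-AS1, an antisense transcript that can share reads with CD27, differed by −2.20 ± 0.49 (adjusted p = 0.12). Without the 3 treated NCI-H1373 libraries that lay with DMSO on the first component, 71 genes were called and 11 of the 12 named here were among them, with RDH10 at −2.13 (adjusted p = 0.000663), SNAI1 at −2.07 (adjusted p = 0.00246) and CRKL at 1.64 (adjusted p = 0.00218). Those libraries were left out because of their expression, so this count is a description. Of the 12, 11 were called by DESeq2, 5 by limma-voom and 0 without the replicate block. Without the 2 NCI-H647 libraries that stood apart, DMSO replicate 2 among them, 3 of the 12 were called. In that fit RDH10 was at −1.66 (edgeR adjusted p = 0.164), SNAI1 at −1.33 (adjusted p = 0.239) and DSEL at −1.14 (adjusted p = 0.154).

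The arms of the difference were uneven in the number of calls. In NCI-H1373 509 of 15252 genes passed (3.34%), 178 higher (1.17%) and 331 lower (2.17%). In NCI-H647 0 genes passed with edgeR (0%, smallest adjusted p = 0.0921), although 1577 had an unadjusted p under 0.05. At that threshold 763 are expected by chance. The number with such a p was 470 without NCI-H647 DMSO replicate 2, which stood apart, and so under the chance number. It was 3169 without DMSO replicate 1 and 1142 without DMSO replicate 3. DESeq2 called 95 genes and limma-voom 14 in NCI-H647. The count in NCI-H1373 was 109 without the replicate block and 28 without DMSO replicate 2, and that in NCI-H647 was 884 without DMSO replicate 1. These counts do not show that the lines differ, which is the question of the difference itself.

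The genes called in NCI-H1373 mostly had the same sign in NCI-H647. Of the 178 called higher, 152 also had a positive response in NCI-H647 (85.4%), with a median of 1.20 in NCI-H1373 and 0.32 in NCI-H647. Of the 331 called lower, 290 also had a negative response (87.6%), with medians of −0.84 in NCI-H1373 and −0.36 in NCI-H647. Over all genes tested 65.8% shared a sign. The difference had an unadjusted p under 0.05 for 91 of the 178 (51.1%) and 104 of the 331 (31.4%), against 4.82% of all genes, and adjusted over all genes it passed for 1 gene of each. Since the calls were made in NCI-H1373, its values are larger by selection, and these medians, sign counts and shares are a description. They also rest on few DMSO libraries. DMSO replicate 2 was the highest DMSO library in both lines for NUSAP1, CCNE2, HSPA5 and DNAJA1, called lower in NCI-H1373. That did not hold in both lines for CDC25C, KIF20A or HSPA1A, also called lower. Without NCI-H1373 DMSO replicate 2, 28 genes were called in that line. The part of these DMSO libraries in the shared signs was not tested. Across all 15252 genes, which are not independent, Pearson's r between the lines' responses was 0.28 and Spearman's coefficient 0.38.

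**Figure D2:**
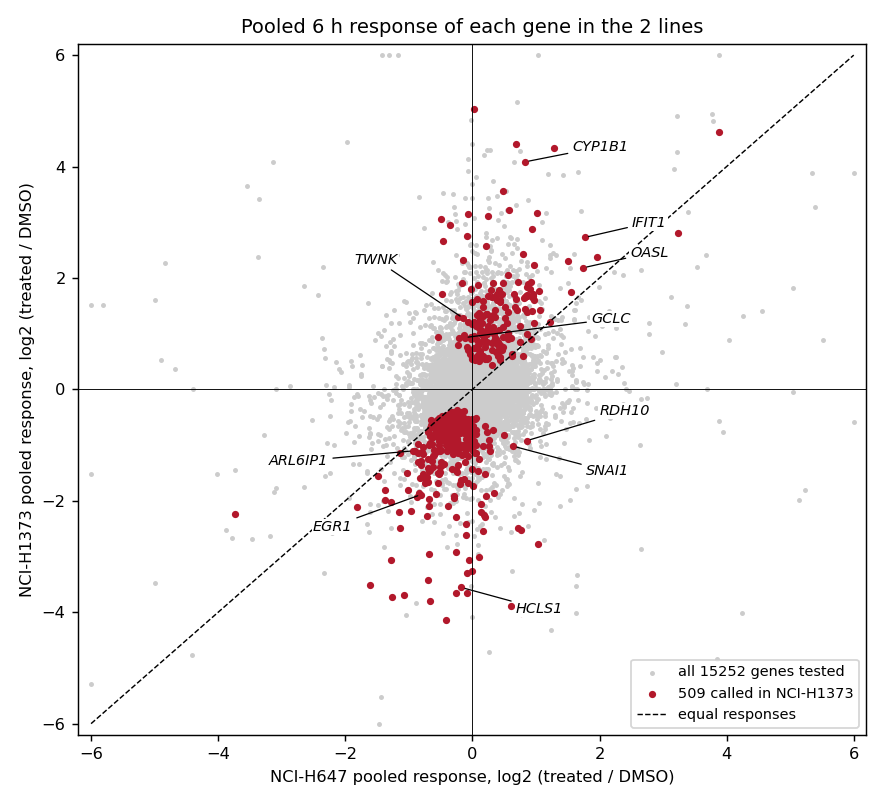
Pooled 6 h response of each tested gene in NCI-H1373 (vertical axis) and NCI-H647 (horizontal axis), log2 of treated over DMSO, with values beyond 6 drawn at the edge; red points are the 509 genes called in NCI-H1373. Most red points lie in the 2 quadrants where both lines have the same sign, nearer to the vertical axis than the line of equal responses.

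Among the largest rises in NCI-H1373 were those of CYP1A1 and CYP1B1, of THBD, the endothelial thrombin receptor thrombomodulin, and of NFATC2, a calcium-regulated transcription factor. THBD rose in NCI-H1373 (edgeR adjusted p = 0.0262), with 403 treated counts and 2 DMSO counts, a ratio per total count of 28.99 with an exact 95% interval of 7.97 to 240 for counting error alone. In NCI-H647 its response was 1.28 ± 0.52 (adjusted p = 0.367), and in both lines all 18 treated libraries lay above DMSO. NFATC2 rose likewise in NCI-H1373 (adjusted p = 0.00595), with 161 treated counts and 2 DMSO counts, a ratio of 11.6 with an interval of 3.15 to 96.4, and was 0.57 ± 0.31 in NCI-H647. The 5 largest falls, AL731571.1, C11orf91, SOBP, HCLS1 and PYGM, rested on low or irregular values. PYGM, a glycogen phosphorylase, was at 0 to 24.4 CPM in treated NCI-H1373 libraries with a median of 0.404 CPM, against 10.8, 10.9 and 0.592 CPM in DMSO, and 3 treated libraries lay above DMSO.

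In NCI-H647 the genes with the smallest p on either side are given as values, since none was called. EDN1, the vasoconstrictor endothelin, was at 10.1 to 90.0 CPM in treated NCI-H647 libraries (median 54.9), against 16.7, 6.78 and 15.4 CPM in DMSO, and 17 of 18 lay above. Its response was 1.93 ± 0.35 in NCI-H647 (adjusted p = 0.0921) and 0.96 ± 0.61 in NCI-H1373 (adjusted p = 0.416). FST, the activin-binding protein follistatin, had 1.42 ± 0.44 in NCI-H1373 and 1.61 ± 0.36 in NCI-H647. ITGA2, a collagen receptor subunit, rose by 0.60 ± 0.17 in NCI-H1373 (adjusted p = 0.0435) and stood at 0.79 ± 0.18 in NCI-H647 (adjusted p = 0.141), with 17 of 18 treated NCI-H647 libraries above DMSO. MGLL and ZNF185 had 0.30 and 0.08 in NCI-H1373 and 0.58 and 0.80 in NCI-H647. On the negative side, ARL6IP1, which shapes the endoplasmic reticulum membrane, fell by 1.10 ± 0.18 in NCI-H1373 (adjusted p = 0.00109) and stood at −0.93 ± 0.18 in NCI-H647 (adjusted p = 0.0921), with a difference of −0.17 ± 0.27. BLOC1S2 and the translation factor gene EIF5 had −0.38 and −0.40 in NCI-H1373 and −0.72 and −0.76 in NCI-H647. NCI-H647 DMSO replicate 2, which stood apart, was the highest DMSO library for ARL6IP1, BLOC1S2 and EIF5, at 541, 106 and 984 CPM. Treated NCI-H647 libraries lay below all DMSO in 15, 12 and 6 of 18 cases for those genes. In NCI-H1373 17 of 18 treated libraries lay within the DMSO range for EIF5. The histone genes HIST1H2BC and HIST2H2AA4, which have near-identical copies and are uncertain, had −0.87 and −0.55 in NCI-H1373 and −1.31 and −0.65 in NCI-H647. For them too NCI-H647 DMSO replicate 2 was the highest DMSO library.

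Of 13 receptor targets tested 5 rose in NCI-H1373, CYP1B1, AHRR and CYP1A1 among them, and for none of the 13 did the difference between the lines pass the test. CYP1B1 was at 10.7 to 734 CPM in treated NCI-H1373 libraries (median 294), against 12.9, 14.5 and 17.8 CPM in DMSO. All treated libraries but 1 lay above DMSO, at 109 CPM or more, and the exception was RBN-2397 300 nM replicate 1 at 10.7 CPM. In NCI-H647 CYP1B1 was at 47.9 to 620 CPM in treated libraries (median 279), against 157, 81.3 and 133 CPM in DMSO, and 12 of 18 lay above. Treated libraries of both lines thus reached like levels, averaging 301 ± 187 CPM in NCI-H1373 and 286 ± 168 CPM in NCI-H647 (SD, n = 18 each), whereas DMSO libraries averaged 15.0 ± 2.47 CPM in NCI-H1373 and 124 ± 38.8 CPM in NCI-H647 (SD, n = 3 each). CYP1B1 rose by 4.09 ± 0.76 in NCI-H1373 (edgeR adjusted p = 0.00575) and was 0.83 ± 0.57 in NCI-H647 (adjusted p = 0.669). The difference was 3.25 ± 0.86, with a 95% interval of 1.47 to 5.03 (adjusted p = 0.419). It passed by DESeq2 (3.27, adjusted p = 0.0149), with all 84 libraries in 1 fit (3.26, adjusted p = 0.0341), and at 3.95 (adjusted p = 0.00145) without 6 libraries, the 5 named on the components and RBN-2397 300 nM replicate 1 of NCI-H1373. That last library lay among treated ones on the first component and was left out for its low receptor targets, CYP1B1 among them, so the value without it is a description.

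By dose, the CYP1B1 response in NCI-H1373 was 4.07, 4.26 and 3.53 at 10, 30 and 300 nM RBN-2397 and 3.65, 5.30 and 3.71 at 3, 10 and 100 nM RBN012337. In NCI-H647 CYP1B1 gave 0.64, 1.08 and 0.37 along the same RBN-2397 doses and 0.70, 1.31 and 0.91 along those of RBN012337. Neither series rose steadily with dose, and the standard errors of these values were 0.70 to 0.86. The NCI-H1373 value at 300 nM RBN-2397 includes replicate 1, at 10.7 CPM. That at 100 nM RBN012337 includes replicates 1 and 2, and that at 30 nM RBN-2397 replicate 2, which lay with DMSO on the first component. The NCI-H647 value at 300 nM RBN-2397 includes replicate 2, which stood apart. The part of these libraries in the course with dose was not tested. The 3 treated NCI-H1373 libraries that lay with DMSO on the first component had CYP1B1 at 109, 176 and 198 CPM, above all DMSO libraries.

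AHRR was at 4.24 to 30.0 CPM in treated NCI-H1373 libraries (median 14.6), against 4.36, 3.10 and 2.96 CPM in DMSO, and 17 of 18 lay above. In NCI-H647 AHRR was at 2.20 to 6.87 CPM in treated libraries (median 4.40), against 3.73, 0 and 3.98 CPM in DMSO, and 11 of 18 lay above. AHRR rose by 1.92 ± 0.43 in NCI-H1373 (adjusted p = 0.0115) and was 0.49 ± 0.42 in NCI-H647, with a difference of 1.43 ± 0.60 (adjusted p = 0.965). TIPARP, the gene of the inhibited enzyme, was at 29.5 to 130 CPM in treated NCI-H1373 libraries (median 92.0), against 29.4, 70.8 and 21.3 CPM in DMSO, and at 8.69 to 69.1 CPM in treated NCI-H647 libraries (median 24.6), against 13.98, 45.9 and 10.9 CPM in DMSO. The DMSO libraries of TIPARP spread widely in both lines, with replicate 2 the highest in each. Its values were 1.21 ± 0.38 in NCI-H1373 (adjusted p = 0.075), 0.20 ± 0.38 in NCI-H647 (adjusted p = 0.928) and 1.01 ± 0.53 in the difference (adjusted p = 1). Without RBN-2397 300 nM replicate 1 the NCI-H1373 value was 1.27 (adjusted p = 0.0457), a description only, since that library was singled out for low receptor targets, TIPARP included.

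CYP1A1 was at 0.404 to 33.9 CPM in treated NCI-H1373 libraries (median 14.2), against 0.379, 1.03 and 0 CPM in DMSO, which summed to 4 counts. It rose by 4.62 ± 0.92 in NCI-H1373 (adjusted p = 0.00776). In NCI-H647 it reached at most 1.17 CPM in treated libraries, 32 counts in all, with no count in 4 of 18, and had 0 counts in DMSO. Set against an allowance of 3 counts over the DMSO group, the treated libraries were 1.86-fold higher. That ratio leaves out the error of the treated counts, and the NCI-H647 response did not pass (edgeR adjusted p = 0.581). No difference between the lines can be read from CYP1A1. The receptor gene AHR itself had 0.29 ± 0.19 in NCI-H1373 and 0.56 ± 0.18 in NCI-H647, with a difference of −0.27 ± 0.26 (adjusted p = 1). Of 14 genes of the receptor's machinery 0 passed in either line by edgeR, with medians of −0.23 in NCI-H1373 and −0.07 in NCI-H647. In NCI-H647 4 of them had an unadjusted p under 0.05, 3 on the positive and 1 on the negative side, against 10.3% of all genes. Those values include NCI-H647 DMSO replicate 2, without which 470 of all genes had such a p.

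**Figure D3:**
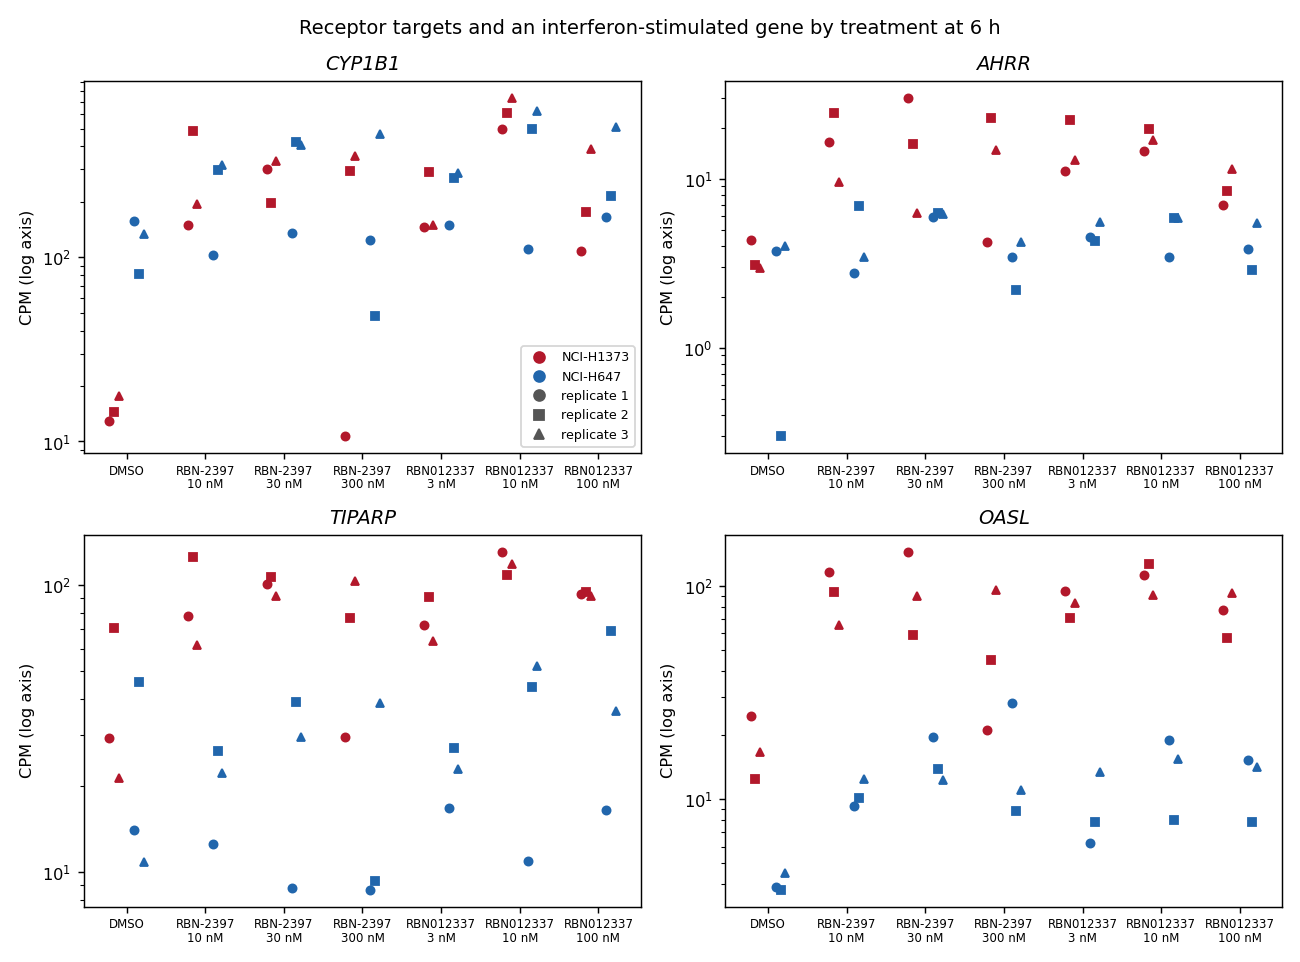
CPM (log axis) of CYP1B1, AHRR, TIPARP and OASL in each 6 h library by compound and dose, red for NCI-H1373 and blue for NCI-H647, with shape for the replicate number; the 0 of AHRR in NCI-H647 DMSO replicate 2 is drawn at the lowest point of its panel. In CYP1B1 the DMSO libraries sit lower in NCI-H1373 than in NCI-H647 while treated libraries overlap, and 1 treated NCI-H1373 library at 300 nM RBN-2397 sits with DMSO in CYP1B1, AHRR, TIPARP and OASL.

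The gene lists that follow are read against a background of 1.17% of all genes higher and 2.17% lower in NCI-H1373, 0% called in NCI-H647, and medians over all genes of −0.00269 in NCI-H1373 and 0.00706 in NCI-H647. No receptor target fell in NCI-H1373, and the list medians were 1.21 in NCI-H1373, 0.42 in NCI-H647 and 0.28 in the difference. Those that rose were CYP1B1, AHRR, CYP1A1, EREG and STC2. EREG, which encodes the EGF receptor ligand epiregulin, rose by 1.58 in NCI-H1373 and was 0.17 in NCI-H647, and STC2, the secreted glycoprotein stanniocalcin, rose by 1.67 in NCI-H1373 and was 0.94 in NCI-H647. No member of any list passed in the difference at 6 h.

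Of 47 interferon-stimulated genes 5 rose in NCI-H1373 and 0 fell, with list medians near those of all genes (0.12 in NCI-H1373, 0.19 in NCI-H647 and 0.00264 in the difference). OASL, an antiviral protein related to oligoadenylate synthetase, was at 21.2 to 145 CPM in treated NCI-H1373 libraries (median 90.0), against 24.5, 12.4 and 16.6 CPM in DMSO, and at 6.22 to 28.1 CPM in treated NCI-H647 libraries (median 12.4), against 3.86, 3.77 and 4.51 CPM in DMSO. Treated libraries lay above DMSO in 17 of 18 cases in NCI-H1373 and in 18 of 18 in NCI-H647. OASL rose by 2.18 ± 0.36 in NCI-H1373 (edgeR adjusted p = 0.00176) and was 1.74 ± 0.44 in NCI-H647 (adjusted p = 0.184), and the difference was 0.44 ± 0.57. IFIT1 and IFIT3, members of a family of antiviral proteins, rose by 2.73 and 1.75 in NCI-H1373 and were 1.77 and 1.56 in NCI-H647. The ubiquitin-like ISG15 rose by 0.61 in NCI-H1373 and was 0.63 in NCI-H647, with a difference of −0.02 ± 0.21. RSAD2, an antiviral enzyme, rose by 1.66 in NCI-H1373 and was 0.31 in NCI-H647. Of 9 interferon genes and receptors and 14 sensors of nucleic acids 0 passed in either line.

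Feedback genes of the ERK pathway had like medians, 0.54 in NCI-H1373 and 0.57 in NCI-H647 over 15 genes, and 5 rose in NCI-H1373. CCND1, the G1 cyclin, rose by 0.64 ± 0.15 in NCI-H1373 and was 0.63 ± 0.15 in NCI-H647. IER3, SPRY2, PHLDA1 and DUSP5 rose by 1.68, 1.56, 1.93 and 0.99 in NCI-H1373 and were at 0.85, 0.44, 0.72 and 0.86 in NCI-H647. DUSP1, a phosphatase of stress kinases, stood apart from them, at −0.91 ± 0.37 in NCI-H1373 and 0.77 ± 0.24 in NCI-H647, with a difference of −1.68 ± 0.45 (adjusted p = 0.331). In NCI-H647, DMSO replicate 2, which stood apart, was the lowest DMSO library for DUSP1, CCND1, IER3, PHLDA1 and DUSP5, but not for SPRY2. It held 4.52 CPM of DUSP1, against 18.1 and 14.6 CPM, and 12.1 CPM of PHLDA1, against 159 and 81.4 CPM. Treated NCI-H647 libraries lay above all DMSO in 15 of 18 cases for DUSP1 and in 3 of 18 for PHLDA1. Of 16 AP-1 and immediate early genes 3 rose in NCI-H1373 and 2 fell. In the difference 7 of the 16 had an unadjusted p under 0.05, against 4.82% of all genes. The transcription factor genes KLF6, MYC and FOSL2 rose by 2.06, 1.29 and 1.49 in NCI-H1373 and were at 0.57, 0.35 and 0.66 in NCI-H647. EGR1 and FOS fell by 1.89 and by 1.81 in NCI-H1373 and stood at −0.81 and −1.02 in NCI-H647. JUN had −0.31 in NCI-H1373 and 0.86 in NCI-H647, and JUNB −0.49 in NCI-H1373 and 0.52 in NCI-H647, with differences of −1.17 ± 0.42 and −1.005 ± 0.38 that did not pass. NCI-H647 DMSO replicate 2 was the lowest DMSO library for JUN, at 8.28 CPM against 41.4 and 31.6 CPM. The same held for KLF6, MYC and FOSL2 but not for JUNB, and it was the highest for EGR1 and FOS.

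Of 10 EGF receptor ligands and regulators 4 rose in NCI-H1373, EREG as above, EGFR by 0.76, the ligand AREG by 1.21 and the receptor's inhibitor ERRFI1 by 1.68. In NCI-H647 EGFR was 0.43, AREG 1.21 and ERRFI1 0.25. The AREG difference was −0.01 ± 0.29 and the ERRFI1 difference 1.43 ± 0.53 (edgeR adjusted p = 0.866). Of 16 targets of TGF-beta and activin 5 rose in NCI-H1373, among them PMEPA1, RUNX2, BHLHE40 and TGFBI, with list medians of 0.53 in NCI-H1373 and 0.33 in NCI-H647. Coagulation and plasminogen genes gave 5 rises among 13, with medians of 0.61 in NCI-H1373 and 0.40 in NCI-H647. Among them THBD rose as above, the urokinase PLAU by 1.48, tissue factor F3 by 1.71 and the thrombin receptor F2R by 0.61. PLAU, F3 and F2R were at 0.51, 0.96 and 0.40 in NCI-H647.

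NF-kB targets had medians of 0.45 in NCI-H1373 and 0.55 in NCI-H647 over 20 genes. None passed in either line by edgeR, and 9 had an unadjusted p under 0.05 on the positive side in NCI-H647. Of all genes 10.3% had such a p in NCI-H647, counting both sides. These values include NCI-H647 DMSO replicate 2, without which 470 of all genes had such a p. YAP and TEAD targets had medians of 0.17 in NCI-H1373 and 0.45 in NCI-H647 over 11 genes, and F3 was the 1 that rose in NCI-H1373. Within that list CRIM1 and AMOTL2 were at −0.01 and 0.03 in NCI-H1373 and at 0.57 and 0.78 in NCI-H647.

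Of 28 mitosis genes 7 fell in NCI-H1373 and 0 rose. The median was −0.37 in NCI-H1373, −0.12 in NCI-H647 and −0.30 in the difference. CDC25C, the phosphatase that starts mitosis, fell by 1.17 ± 0.21 in NCI-H1373 (edgeR adjusted p = 0.00283) and was −0.14 ± 0.25 in NCI-H647, with a difference of −1.03 ± 0.34 (adjusted p = 0.681). The kinesin KIF20A fell by 0.89 in NCI-H1373 and was −0.08 in NCI-H647. BUB1, NUSAP1, TOP2A, KIF2C and KIF11 fell by 0.81, 0.90, 0.74, 0.71 and 0.60 in NCI-H1373, and their values in NCI-H647 were −0.53, −0.45, −0.19, −0.28 and −0.29. Of 29 DNA replication genes CDC6 and CCNE2 fell in NCI-H1373, by 0.65 and by 1.52, and were −0.17 and −0.78 in NCI-H647, while the list median was −0.01 in NCI-H1373 and 0.11 in NCI-H647. CCNE2 was at 20.3, 78.1 and 33.1 CPM in NCI-H1373 DMSO replicates 1 to 3 and at 14.5, 39.15 and 22.5 CPM in those of NCI-H647. Treated libraries lay below all DMSO for CCNE2 in 15 of 18 cases in NCI-H1373 and in 10 of 18 in NCI-H647. NUSAP1 was at 288, 588 and 247 CPM and at 99.6, 177 and 92.0 CPM in the same DMSO libraries.

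Stress genes had like medians in the lines. Of 22 genes of the integrated stress and unfolded protein responses 5 fell and 1 rose in NCI-H1373, with medians of −0.17 in NCI-H1373 and −0.15 in NCI-H647. The transcription factor gene DDIT3 fell by 1.12, SESN2 by 1.43, HERPUD1 by 1.10, the chaperone gene HSPA5 by 0.72 and PDIA4 by 0.52 in NCI-H1373, and they stood at −0.28, −0.32, −0.39, −0.43 and −0.28 in NCI-H647. DMSO replicate 2 was the highest DMSO library in both lines for DDIT3, HERPUD1, HSPA5 and PDIA4, and for SESN2 in NCI-H647 only. Treated NCI-H647 libraries lay within the DMSO range in 13 of 18 cases for DDIT3, 6 for SESN2, 18 for HERPUD1, 16 for HSPA5 and 4 for PDIA4. DDIT4, an inhibitor of mTORC1, rose by 1.67 in NCI-H1373 and was 0.85 in NCI-H647. Its NCI-H647 DMSO replicates 1 to 3 held 233, 24.1 and 142 CPM, and 11 of 18 treated libraries lay within that range. Of 11 cytosolic heat shock genes 3 fell in NCI-H1373, with medians of −0.32 in NCI-H1373 and −0.33 in NCI-H647. DNAJA1, a cochaperone, fell by 0.63 ± 0.16 in NCI-H1373 and was −0.65 ± 0.17 in NCI-H647. The near-identical HSPA1A and HSPA1B, whose reads can be shared, fell by 0.79 and by 0.96 in NCI-H1373 and were −0.53 and −0.66 in NCI-H647.

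At most 3 members were called in each of the remaining lists. GCLC, the rate-limiting enzyme of glutathione synthesis, was the 1 NRF2 target of 16 that rose, at 143 to 482 CPM in treated NCI-H1373 libraries (median 328), against 152, 154 and 178 CPM in DMSO, and at 32.5 to 65.7 CPM in treated NCI-H647 libraries (median 49.6), against 76.1, 45.2 and 41.1 CPM in DMSO. Treated libraries lay above DMSO in 15 of 18 cases in NCI-H1373 and in 0 of 18 in NCI-H647. The GCLC difference was 1.05 ± 0.27 (edgeR adjusted p = 0.261). Of 18 glycolysis and hypoxia genes VEGFA and ANGPTL4 rose by 1.71 and 1.72 in NCI-H1373 and PFKFB3 fell by 0.83, with 0.66, 0.47 and −0.05 in NCI-H647. The keratin genes KRT81 and KRT17 rose by 0.998 and 1.42 in NCI-H1373 and were at 0.14 and 0.70 in NCI-H647. In NCI-H1373 SESN2 was the 1 p53 target of 19 that fell, and among 11 mesenchymal genes TGFBI rose and SNAI1 fell. Cholesterol synthesis genes had medians of −0.05 in NCI-H1373 and −0.30 in NCI-H647 over 18 genes with 0 called. In the PARP family, MHC class I presentation, apoptosis regulators, prostaglandin synthesis, immune checkpoint ligands and lung lineage lists 0 members passed in either line. Among them MHC class I presentation had medians of −0.15 in NCI-H1373 and −0.01 in NCI-H647. Only 1 squamous differentiation gene of 12 reached the level needed for a test.

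**Figure D4:**
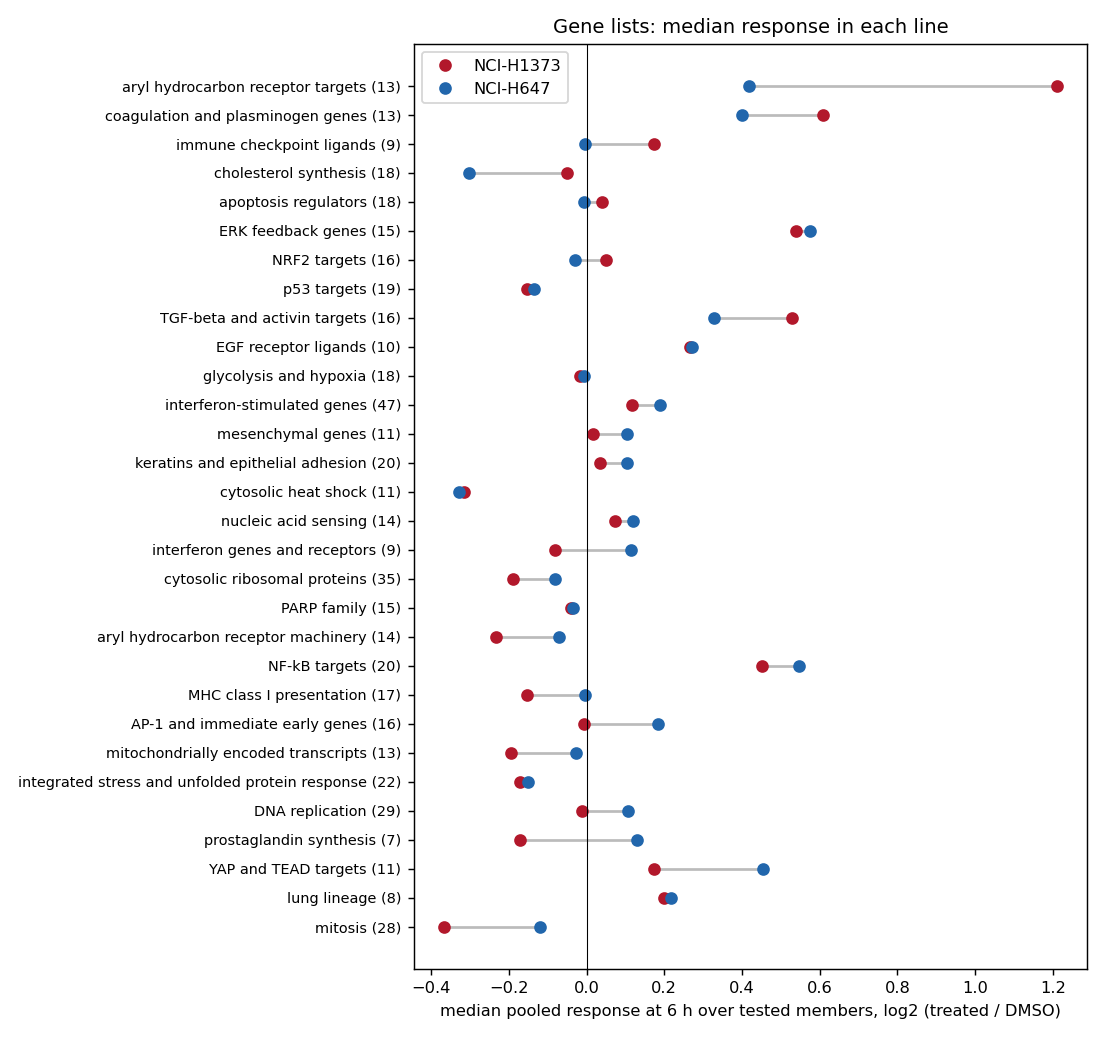
Median pooled 6 h response over the tested members of each list (number in brackets), log2 of treated over DMSO, red for NCI-H1373 and blue for NCI-H647, with lists ordered by the median difference. Receptor targets have the highest median in NCI-H1373 (1.21, against 0.42 in NCI-H647) and mitosis genes the lowest (−0.37, against −0.12).

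The same contrast at 24 h rests on another 42 libraries with their own DMSO. There 147 of 15359 genes were called in the difference (0.957%), 68 higher and 79 lower. Of the 12 genes named in the 6 h difference 9 had the same sign at 24 h, and 2 were called. RDH10 differed by −1.60 at 24 h (edgeR adjusted p = 0.0157), with −0.62 in NCI-H1373 and 0.98 in NCI-H647, and SNAI1 by −1.68 (adjusted p = 0.0404), with −0.97 in NCI-H1373 and 0.71 in NCI-H647. TWNK differed by 0.73 at 24 h (adjusted p = 0.368) and HCLS1 by −2.77 (adjusted p = 0.131). MB21D2 had the opposite sign, at −1.27 (adjusted p = 0.174).

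Among members of the lists 17 of 495 were called in the difference at 24 h (3.43%), and 15 of them had the same sign at 6 h, 5 with an unadjusted p under 0.05 there. Of all 146 genes called at 24 h and tested at 6 h, 106 had the same sign at 6 h (72.6%), and of all 14815 genes tested at both times 53.1% did. GCLC differed by 1.62 at 24 h (edgeR adjusted p = 4.16e-05), with 1.46 in NCI-H1373 and −0.16 in NCI-H647, and ERRFI1 by 2.11 (adjusted p = 0.000176). DUSP1 differed by −2.95 (adjusted p = 0.00111) and JUN by −1.44 (adjusted p = 0.0377). The cytokine gene GDF15 differed by 4.85 at 24 h (adjusted p = 0.000482), after 1.55 at 6 h (unadjusted p = 0.16), and the prostaglandin synthase gene PTGS2 by −5.10 (adjusted p = 0.00798), after −1.65 at 6 h (unadjusted p = 0.134). ITGA2 and MGLL, which had no difference call at 6 h, differed by −1.46 (adjusted p = 0.000731) and −1.63 (adjusted p = 0.0101) at 24 h, with −0.07 and 0.12 in NCI-H1373 and 1.39 and 1.75 in NCI-H647. For receptor targets no difference passed at 24 h, and CYP1B1 had 0.73 (adjusted p = 0.547), AHRR 1.57 (adjusted p = 0.391) and TIPARP 0.82 (adjusted p = 0.254).

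**Figure D5:**
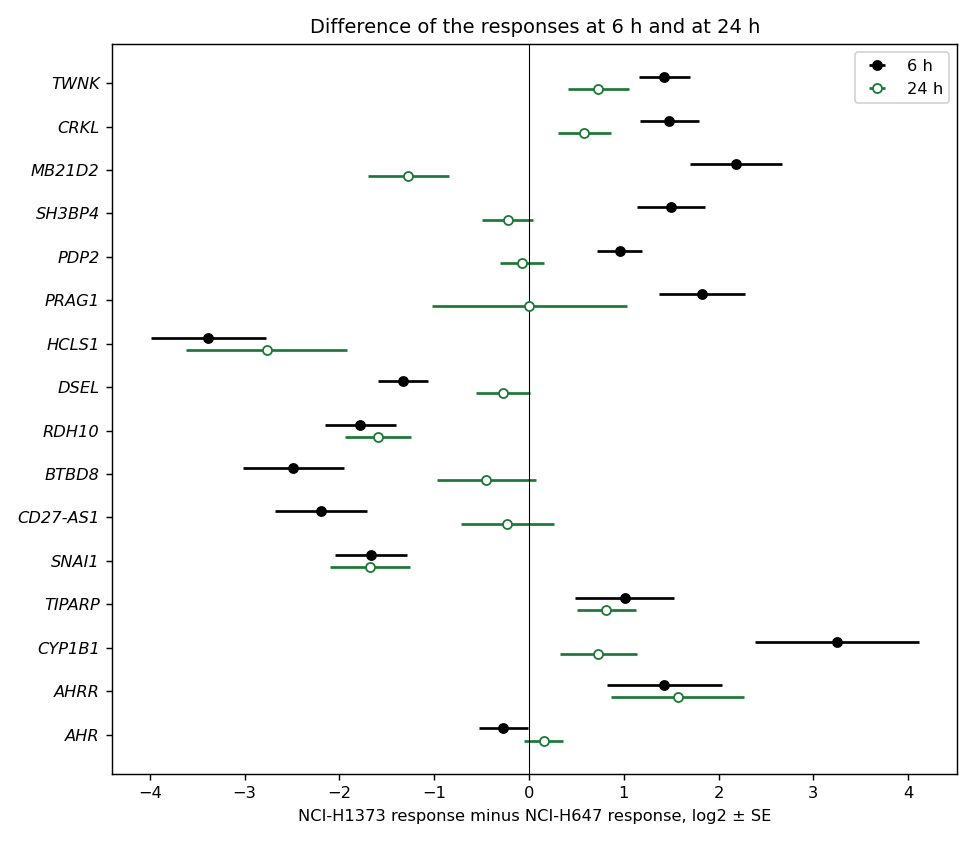
NCI-H1373 response minus NCI-H647 response at 6 h (filled) and 24 h (open) for the 12 genes named in the difference and 4 receptor genes, log2 with standard errors; the 2 times share no library. RDH10 and SNAI1 have like values at both times, whereas MB21D2 changes sign.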

How the data were processed

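RNA of 2 lung cancer lines was read as 3' digital gene expression. The authors deposited 1 table of estimated counts for 57964 genes and 84 libraries, from Salmon and hg38 per the submitters' processing notes; the sources used here do not give the annotation or how strand and molecular identifiers were handled. Counts were rounded (49.4% of nonzero values were not whole), and 57845 genes were matched to GENCODE 29. Replicates are experiments in triplicate per the labels, with no culture or day given, so the p-values reflect library-to-library spread, part of which may be technical. All 42 pairs compared within groups differed by more than sampling noise.

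The 42 libraries of 6 h were fitted together in edgeR 4.0.16 (R 4.3.3) with filterByExpr, TMM scaling, 14 groups and replicate number within line as a block, leaving 24 residual degrees of freedom. The robust quasi-likelihood F test was adjusted by Benjamini-Hochberg over 15252 genes at 0.05, and a gene past it is called. Same-numbered libraries shared deviations with a median correlation of 0.234 in NCI-H1373 and 0.125 in NCI-H647, over 0.1 in 58 and 42 of 63 pairs, so not in every pair. The block is part of the comparison's definition. The 24 h libraries were fitted the same way. CPM used TMM-scaled totals, errors beside log2 values are standard errors, and intervals from counts cover counting error only.

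The comparison and the 34 gene lists were chosen with earlier results of these data known. Named genes are the largest 10 called changes each way in the difference (mean CPM at least 5), filled up with the 5 smallest p where fewer than 5 passed, the largest 5 each way in each line, 4 members per list by p of the difference, and TIPARP, CYP1A1, CYP1B1, AHRR and AHR. Other list members are named because they were called in NCI-H1373 or at 24 h, after their values were seen. A few genes that these rules name are not reported here. The fit was tested on simulated data, drawn without replicate effects, with genes of mean CPM at least 5 in both lines changed in treated NCI-H1373 libraries. In the difference 49 of 100 genes changed 2-fold and 88 of 100 changed 4-fold were recovered. In NCI-H1373 alone 77 and 98 of 100 were. HCLS1 lay below that level in NCI-H1373, so these shares do not cover it. Alternatives included DESeq2 1.42.0, limma 3.58.1, other filters and scalings, no block, single compounds and doses, and fits without some libraries.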

Additional observations from a re-analysis of the deposited data

Results flagged for a closer look

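The responses of 2 of 15252 genes tested (0.0131%) differed between the lines by the test of the difference itself. TWNK differed by 1.43 on the log2 scale (NCI-H1373 minus NCI-H647, edgeR adjusted p = 0.0407), with all 18 treated NCI-H1373 libraries above DMSO and 17 of 18 treated NCI-H647 libraries within the DMSO range. HCLS1 differed by −3.38 (adjusted p = 0.0338), and only 3 treated NCI-H1373 libraries held more than 0.77 CPM of it. NCI-H1373 DMSO replicates 1 to 3 held 4.74, 3.10 and 0 CPM of HCLS1. With 1 coefficient for all treated libraries its difference was −1.465 and did not pass.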

How the results depend on the processing

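Counts of called genes are given for the difference, NCI-H1373 and NCI-H647 in that order, beside 2, 509 and 0. The fit without the replicate block gave 0, 109 and 1, no filter on low counts 100, 1016 and 333, DESeq2 20, 780 and 95, limma-voom 5, 564 and 14, and 1 coefficient for all treated libraries 0, 318 and 2. RBN-2397 alone gave 0, 787 and 6, RBN012337 alone 0, 45 and 0, the lowest doses 3, 1019 and 2, the middle doses 0, 50 and 0, and the top doses 0, 7 and 0. All 84 libraries in 1 fit gave 13, 605 and 9, and counts thinned to the shallowest library 0, 244 and 11. Chosen after seeing the data, leaving out the 3 treated NCI-H1373 libraries that lay with DMSO gave 71, 1080 and 2, leaving out the 2 NCI-H647 libraries that stood apart 3, 1037 and 1, leaving out 6 libraries 162, 1622 and 5, and DMSO replicate 3 as the only NCI-H1373 vehicle 2, 5 and 3. In that last fit HCLS1 reversed, to 0.70 in the difference and 0.53 in NCI-H1373. Leaving out 1 library, or 1 replicate number of a line, gave 0 to 13 in the difference, 28 to 914 in NCI-H1373 and 0 to 884 in NCI-H647. The lowest count in NCI-H1373 came without DMSO replicate 2 and the highest in NCI-H647 without its DMSO replicate 1, and the difference reached 13 without NCI-H1373 RBN-2397 30 nM replicate 2. RLE size factors and a stricter filter left every count within 1.5 times. TWNK kept its sign in 66 of 66 fits, at 1.12 to 1.77, and passed in 30 of them. The TWNK call was lost without DMSO replicate 1 or 3 of either line, or without any 1 of these treated libraries: in NCI-H1373 RBN-2397 10 nM replicate 1, RBN-2397 300 nM replicates 1, 2 and 3, RBN012337 3 nM replicates 2 and 3 and RBN012337 10 nM replicate 3, and in NCI-H647 all of RBN-2397 30 nM and RBN012337 10 nM and replicates 1 and 3 of RBN-2397 10 nM, RBN-2397 300 nM and RBN012337 3 nM. The HCLS1 call was lost without NCI-H1373 DMSO replicate 1, NCI-H647 DMSO replicate 3 or 15 of the same treated libraries, at adjusted p = 0.0501 to 0.0636 for the treated ones. Neither call held in every one of the 42 fits, and 10 of the 509 calls in NCI-H1373 did. The causes were not tested. Each line had 3 DMSO libraries, and the median standard error was 0.363 for the difference, 0.263 for NCI-H1373 and 0.248 for NCI-H647.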
